A study of Homo sapiens with 6 samples.

Results

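Genes of the Hippo pathway and target genes of its effectors YAP and TAZ were followed in RKO, a human colon carcinoma cell line, with and without a hairpin RNA against TRIM21. The set holds 37 genes of the 28278 rows in the count table: 14 kinases, scaffolds and adaptors, 7 genes for the co-activators, the TEAD factors and VGLL4, and 16 target genes. The members were chosen by gene symbol from a pathway list drawn up when the differences between shTRIM21 and shControl in these same libraries were already known. Counts, medians and calls over the members are therefore a description of this contrast and support nothing beyond it. Of the 37 genes, 35 passed the filter on low counts; the target gene FOXF2 was listed at 0 in all 6 libraries, as were the junction and polarity genes TJP1 and LLGL1, and whether such a 0 reflects the cells or the counting was not tested; the target gene ANKRD1 had too few counts to be tested.

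Both groups are RKO cells that carry a lentiviral hairpin and went through puromycin selection at 5 µg/ml for 2 to 3 weeks, begun 36 h after infection. The shTRIM21 group (3 libraries, genotype TRIM21 knockdown) carries a TRIM21-specific hairpin, and the shControl group (3 libraries, genotype WT) a scrambled one. The titles call the libraries biological replicates. The labels name 1 hairpin or pool per group and no separate infections, so p-values measure the spread between these libraries, and whether that includes separate infections is not stated. One label field names mouse tissue as the source, against the human organism, cell line and gene symbols of the other fields.

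In the Hippo pathway the kinases MST1 and MST2 (genes STK4 and STK3), with the adaptor SAV1, activate the kinases LATS1 and LATS2 and their MOB1 partners. LATS kinases phosphorylate the co-activators YAP (YAP1) and TAZ (WWTR1), which keeps them out of the nucleus; unphosphorylated YAP and TAZ bind TEAD transcription factors and turn on genes such as CCN1 and CCN2. Some targets, among them LATS2, AMOTL2 and PTPN14, encode inhibitors of YAP and so form negative feedback. In the intestine the pathway is known for its part in regeneration and in tumour growth.

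Libraries held 33499827 to 44466137 counts, of which ribosomal RNA rows took 14.7% to 36.9%; without these rows depth was 27808775 to 29100459 counts. TRIM21 was at 7.97, 6.92 and 7.85 CPM (counts scaled to library size after correction by TMM factors, the trimmed mean of M values) in shTRIM21 and at 12.2, 11.5 and 9.47 CPM in shControl, and the groups did not overlap on this scale. Its log2 fold change was -0.54 (SE 0.12). Scaled to plain library totals TRIM21 was at 8.61, 7.12 and 8.87 against 10.9, 12.4 and 7.71 CPM: control replicate 3, the library with the most ribosomal RNA, lay below shTRIM21 replicates 1 and 3, and TRIM21 was not called without scaling factors (-0.34, edgeR adjusted p = 0.197). Scaled to totals without ribosomal RNA rows it was at 10.7, 9.31 and 10.7 against 15.8, 14.6 and 12.2 CPM, with no overlap. Of 9 colon epithelial markers, CDX1 and LGALS4 were listed at 0, and KRT8, KRT18, KRT19, EPCAM, CDH1, CDX2 and VIL1 were measured. Their summed level was 4637 to 4879 CPM in shTRIM21 and 5969 to 6636 CPM in shControl, with KRT8, KRT18 and KRT19 called lower and CDH1 called higher. Summed markers of fibroblasts were at 10.5 to 11.1 CPM in shTRIM21 and 6.15 to 9.19 CPM in shControl, nearly all of it COL1A1, with DCN and LUM at 0. Those of leukocytes were at 6.28 to 6.88 and 7.53 to 8.64 CPM, nearly all of it CD68, with CD3E and MS4A1 at 0, and those of endothelium stayed under 1 CPM in every library. The part of these marker differences in the values below was not tested. In bulk RNA, fewer cells that express a gene and less RNA per cell cannot be told apart.

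Target genes of YAP and TAZ were lower in shTRIM21 or did not pass the test. Of the 14 tested targets 8 were called lower and 0 higher (quasi-likelihood F test in edgeR, adjusted by Benjamini-Hochberg over 15131 genes, threshold 0.05); 11.0% of all tested genes were called lower and 9.77% higher. At an unadjusted p under 0.05 the count of higher targets was also 0, as it was with DESeq2. The median log2 fold change of the tested targets was -0.59, and 0.0054 over all tested genes. Levels below are CPM on library sizes scaled by TMM factors, as are statements on overlap, and are given for replicates 1, 2 and 3, with SD over n = 3 libraries, and log2 fold changes are shTRIM21 against shControl.

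CCN2, a matricellular protein gene used widely as a readout of YAP, was at 1.79, 1.99 and 1.90 CPM in shTRIM21 and at 7.42, 6.58 and 7.18 CPM in shControl. All shTRIM21 libraries lay far below all controls, with a log2 fold change of -1.90 (SE 0.15), or 3.72-fold lower. Its relative CCN1 (also CYR61) was at 9.94, 11.6 and 10.9 against 21.0, 26.2 and 22.2 CPM, 2.13-fold lower (log2 fold change -1.09, SE 0.10). Within a library CCN2 had 0.180, 0.171 and 0.174 counts per CCN1 count in shTRIM21 and 0.353, 0.252 and 0.323 in shControl. The ratio, which no scaling touches, was thus lower in every shTRIM21 library: CCN2 was lower also relative to CCN1. CCN2 overlaps the antisense gene CCN2-AS1 on the annotation, which has no row of its own in the count table.

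The thrombospondin gene THBS1, coding for an adhesive glycoprotein of the matrix, was at 8.61, 8.88 and 9.30 CPM in shTRIM21 and at 19.6, 22.0 and 22.7 CPM in shControl. It was 2.40-fold lower (log2 fold change -1.26, SE 0.092), with shTRIM21 libraries close together and well apart from the controls. F3, which encodes tissue factor, the starter of blood clotting, was at 15.9, 14.8 and 15.7 against 28.3, 38.9 and 39.2 CPM. Control replicate 1 had the lowest F3 level of its group and still lay above every shTRIM21 library; the log2 fold change was -1.20 (SE 0.11). THBS1 overlaps FSIP1, which has its own row.

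**Figure D1:**
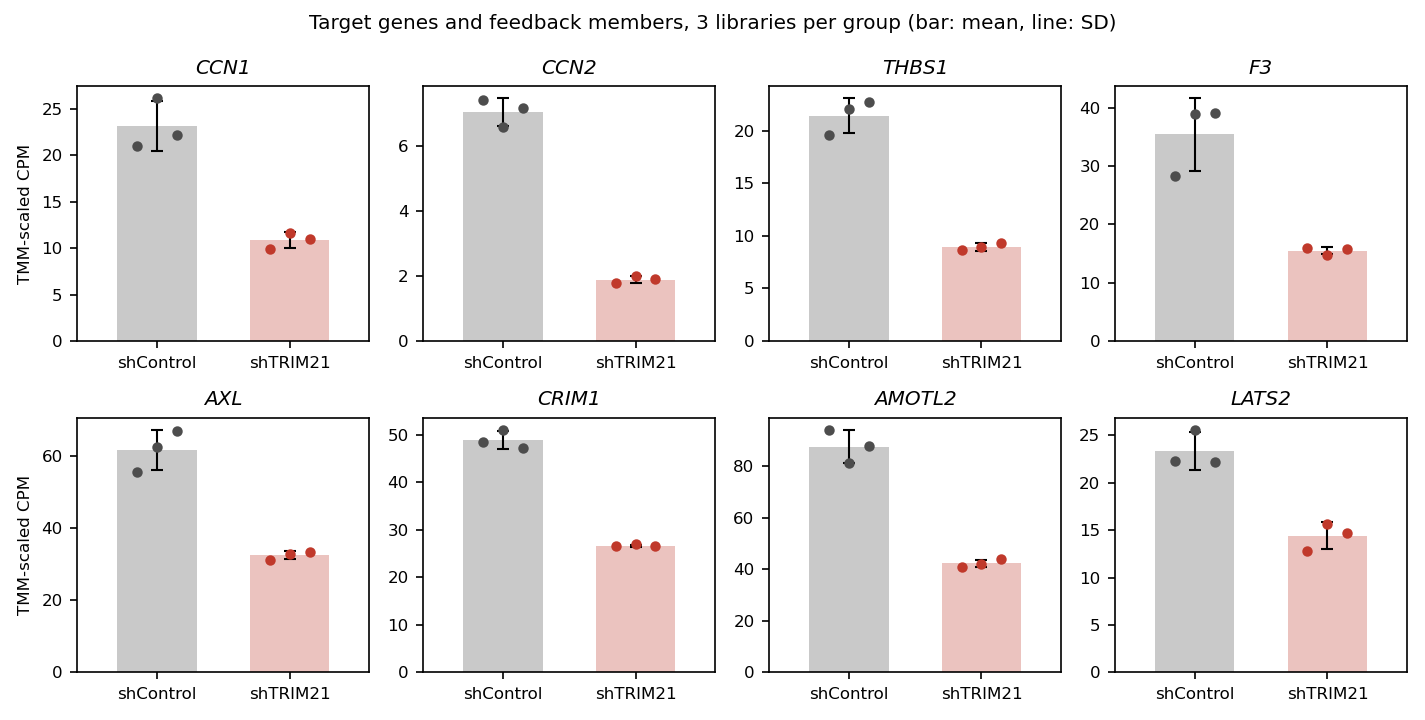
Levels of 6 target genes and 2 feedback members in each library, as TMM-scaled CPM on a linear axis that starts at 0; points are libraries, bars are means and lines are SD (n = 3). In each panel the 3 shTRIM21 libraries lie below the 3 shControl libraries, from CCN2 (1.89 against 7.06 CPM) to LATS2 (14.4 against 23.3 CPM).

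The receptor tyrosine kinase gene AXL was at 31.2, 32.9 and 33.4 CPM in shTRIM21 and at 55.7, 62.6 and 66.8 CPM in shControl (log2 fold change -0.92, SE 0.072). CRIM1, a membrane protein gene that binds growth factors of the BMP family, was at 26.5, 26.9 and 26.6 against 48.4, 51.0 and 47.2 CPM. CRIM1 varied by 0.208 CPM (SD) among the shTRIM21 libraries, and its means were 26.7 against 48.9 CPM (log2 fold change -0.87, SE 0.063). DOCK5, an activator of the small GTPase Rac, was at 42.2, 46.1 and 49.4 against 66.9, 72.3 and 72.8 CPM (log2 fold change -0.62, SE 0.067). MYOF, a ferlin gene of membrane repair and the most abundant target, was at 185, 193 and 209 against 250.4, 266 and 258 CPM. Its log2 fold change of -0.40 (SE 0.056) was the smallest among the called targets, and the groups did not overlap.

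The other 6 tested targets were not called. FJX1, a relative of the fly Hippo regulator four-jointed, was at 15.1, 20.3 and 17.8 CPM in shTRIM21 and at 15.7, 18.9 and 16.8 CPM in shControl, and the groups overlapped; the 95% interval of its log2 fold change ran from -0.18 to 0.28. ASAP1, a GTPase-activating protein gene, was at 33.7 ± 2.61 against 37.9 ± 1.80 CPM (-0.17, interval -0.32 to -0.017). ARHGEF17 was at 20.5 ± 1.41 against 22.4 ± 1.06 CPM (-0.12, interval -0.30 to 0.047), not overlapping. The kinase gene NUAK2 was at 4.66, 4.95 and 3.91 against 5.40, 5.55 and 5.33 CPM, not overlapping, with an interval from -0.56 to 0.029. TGFB2 and IGFBP3 were near 1 CPM and gave wide intervals, from -1.21 to 0.099 and from -1.27 to 0.50, so a change as large as that of MYOF was not detectable for them at this depth. TGFB2 overlaps TGFB2-AS1 and TGFB2-OT1, which have rows of their own.

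ANKRD1, a nuclear ankyrin-repeat protein gene and a standard YAP target, was counted 0, 2 and 0 times in the shTRIM21 libraries against 12, 20 and 11 times in the controls. The groups did not overlap, but the counts are too low for the filter used. With no filter on low counts ANKRD1 was tested, and 9 of 15 tested targets were called lower, ANKRD1 among them. In that setting 1822 of all 20488 tested genes were called lower. Among tested targets 10 of 14 had every shTRIM21 library below every control library, where 19.0% of all tested genes did so, and 0 had the reverse order, where 18.7% of all tested genes did.

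**Figure D2:**
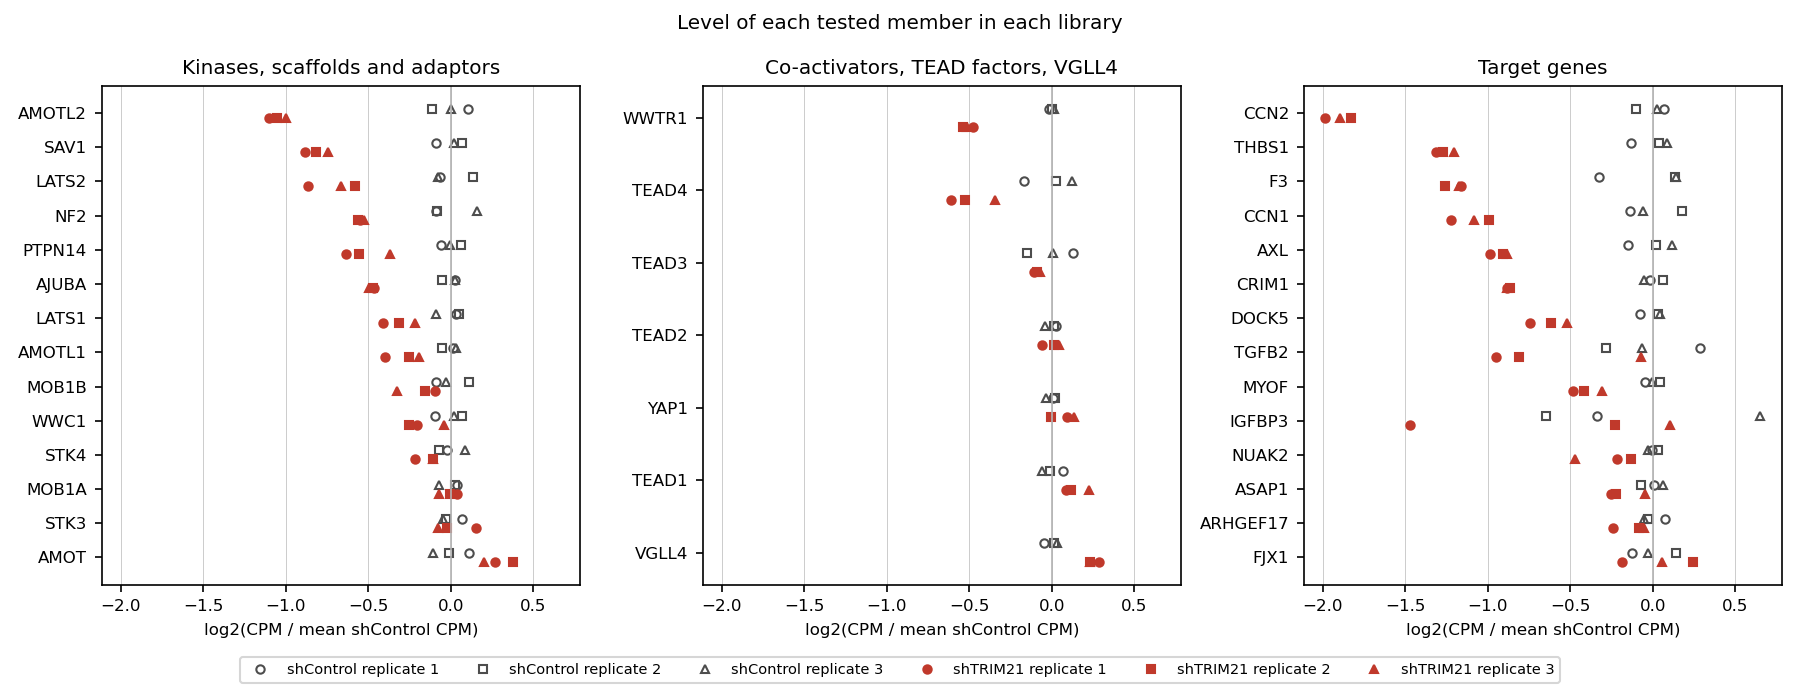
Level of each of the 35 tested members in each library as log2 of its CPM over the mean shControl CPM, by role; filled red marks are shTRIM21, open grey marks shControl, and shapes are replicates. All 3 shTRIM21 marks of CCN2, THBS1, F3 and CCN1 lie well to the left of their controls, as does 1 mark of the low-count IGFBP3, with STK3, MOB1A, TEAD2, YAP1 and FJX1 near 0, and VGLL4 and AMOT to the right.

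Stretches just before the annotated starts are shown for the called targets CCN2, THBS1 and F3, whose levels differed most, and for ANKRD1 and the feedback gene AMOTL2, because YAP and TAZ reach DNA through TEAD factors. They come from RefSeq (GRCh38.p14) and were searched on both strands for the TEAD word CATTCC, or GGAATG on the other strand, and for the AP-1 word TGANTCA, which reads the same on both strands and does not overlap the TEAD word. Capitals mark the matches. Shown are CCN2 at chr6:131951423-131951572 (minus strand), THBS1 at chr15:39580929-39581078 (plus), F3 at chr1:94541860-94542009 (minus), ANKRD1 at chr10:90921290-90921319, chr10:90921265-90921294 and chr10:90921198-90921227 (minus) and AMOTL2 at chr3:134374499-134374528 (minus, before the inner of its 2 listed starts).
CCN2: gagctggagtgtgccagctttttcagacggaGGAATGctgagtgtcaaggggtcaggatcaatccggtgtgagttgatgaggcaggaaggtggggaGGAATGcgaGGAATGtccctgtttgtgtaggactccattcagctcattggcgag
THBS1: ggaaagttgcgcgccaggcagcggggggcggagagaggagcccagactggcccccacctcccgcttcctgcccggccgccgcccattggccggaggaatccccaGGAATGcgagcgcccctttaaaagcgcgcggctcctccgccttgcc
F3: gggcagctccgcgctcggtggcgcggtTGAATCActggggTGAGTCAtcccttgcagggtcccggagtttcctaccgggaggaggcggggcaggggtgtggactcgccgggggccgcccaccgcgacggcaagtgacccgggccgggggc
ANKRD1, outer TEAD word: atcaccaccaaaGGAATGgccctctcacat
ANKRD1, AP-1 word: cacatttcttccTGATTCAcatattcagca
ANKRD1, inner TEAD word: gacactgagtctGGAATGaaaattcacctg
AMOTL2: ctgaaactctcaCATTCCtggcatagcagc

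In the 250 bases before each listed start, CCN2 held 3 TEAD words, which began 169, 104 and 95 bases before the start, the last pair 3 bases apart. THBS1 held 1 at 46 bases, ANKRD1 held 2 at 220 and 128 bases with an AP-1 word at 195, and AMOTL2 held 1 at 69 bases. F3 held 0 TEAD words and 2 AP-1 words at 223 and 210 bases. The TEAD word was in 7 of the 12 listed windows of 11 target genes (58.3%) and in 11.9% of all 35116 windows of the same length; the AP-1 word was in 2 of the 12 and in 6.57% of all windows. Both called and uncalled targets held the TEAD word: besides CCN2 and THBS1 the called AXL had it, before the inner of its 2 starts, as did the uncalled NUAK2 and TGFB2 and FOXF2, which was listed at 0. The windows of the called F3 and MYOF and of the uncalled FJX1 and IGFBP3 had none. Among the other members the word was before a start of PTPN14, AJUBA and YAP1. Of the 250 bases of these windows, 250 lie in annotated exons for AJUBA and for YAP1, and 0 for PTPN14. The printed stretches of AMOTL2 and of the inner TEAD word of ANKRD1 lie wholly in annotated exons (30 of 30 bases each). Around the AP-1 word of ANKRD1 12 of 30 bases do. The printed stretches of CCN2, THBS1, F3 and the outer TEAD word of ANKRD1 have 0 bases in exons. A match describes letters and is no evidence of a bound site.

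Among the kinases, scaffolds and adaptors 8 of 14 were called lower and 0 higher, beside 11.0% and 9.77% of all tested genes, with a median log2 fold change of -0.29. At an unadjusted p under 0.05 edgeR gave 1 higher gene, AMOT, and DESeq2 called 0 higher. In the order of their log2 fold changes the called genes were AMOTL2, SAV1, LATS2, NF2, PTPN14, AJUBA, LATS1 and AMOTL1. AMOTL2, a scaffold that holds YAP at junctions, was at 40.8, 42.2 and 43.8 CPM in shTRIM21 and at 94.1, 81.0 and 87.7 CPM in shControl. Its log2 fold change of -1.05 (SE 0.065) was the largest among members outside the target list, and the groups were far apart. PTPN14, a phosphatase-family protein gene that binds YAP, was at 44.6, 47.2 and 53.8 against 66.5, 72.2 and 69.0 CPM (-0.51, SE 0.070). AJUBA, a LIM protein gene that restrains LATS, was at 31.7, 31.5 and 30.9 against 44.5, 42.0 and 44.4 CPM (-0.48, SE 0.061).

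The angiomotin genes did not move alike. AMOTL1 was called lower, at 51.3, 56.9 and 59.3 against 68.4, 65.4 and 69.2 CPM (-0.28, SE 0.064). AMOT was at 9.41, 10.1 and 8.98 CPM in shTRIM21 and at 8.42, 7.73 and 7.23 CPM in shControl, not overlapping and not called (interval 0.058 to 0.52). The counts of AMOTL2 per AMOTL1 count were 0.796, 0.743 and 0.739 in shTRIM21 and 1.38, 1.24 and 1.27 in shControl. In control libraries AMOTL2 thus had more counts than AMOTL1, and in shTRIM21 libraries fewer. Per AMOTL1 count AMOT went the other way, from 0.115 ± 0.00973 in shControl to 0.171 ± 0.0171 in shTRIM21 (SD, n = 3).

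Both LATS kinase genes were called lower, LATS2 more than LATS1. LATS2 was at 12.8, 15.6 and 14.7 CPM in shTRIM21 and at 22.3, 25.6 and 22.2 CPM in shControl (-0.70, SE 0.094), and LATS1 at 23.8, 25.4 and 27.2 against 32.3, 32.7 and 29.6 CPM (-0.31, SE 0.075). Within a library LATS2 had 0.539, 0.614 and 0.543 counts per LATS1 count in shTRIM21 and 0.689, 0.782 and 0.748 in shControl. All shTRIM21 ratios lay below all control ratios. SAV1, the adaptor that links MST kinases to LATS, was at 37.5, 39.3 and 41.3 against 64.9, 72.4 and 70.1 CPM. Its log2 fold change was -0.81 (SE 0.064), and the groups were far apart. NF2, coding for the membrane-linked tumour suppressor merlin, was at 73.9, 73.4 and 75.1 against 101, 102 and 121 CPM (-0.54, SE 0.067), and control replicate 3 was the highest.

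The MST kinase genes and the MOB1 genes were not called. STK3 was at 26.1, 23.1 and 22.2 CPM in shTRIM21 and at 24.5, 23.0 and 22.7 CPM in shControl, and STK4 at 52.6 ± 2.27 against 58.1 ± 3.19 CPM. The intervals of their log2 fold changes were -0.15 to 0.19 and -0.28 to -0.0093; the STK4 groups did not overlap, the STK3 groups did. MOB1A, the most abundant upstream member in CPM, was at 165 ± 6.27 against 166 ± 6.69 CPM, with an interval from -0.12 to 0.10. MOB1B was at 36.5 ± 2.93 against 41.5 ± 3.01 CPM, not overlapping. WWC1, which encodes the scaffold KIBRA, was at 62.9 ± 5.03 against 70.4 ± 4.11 CPM, overlapping, with an interval from -0.31 to -0.018. For MOB1A and STK3 the intervals leave out a fall of the size seen for SAV1 or NF2.

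**Figure D3:**
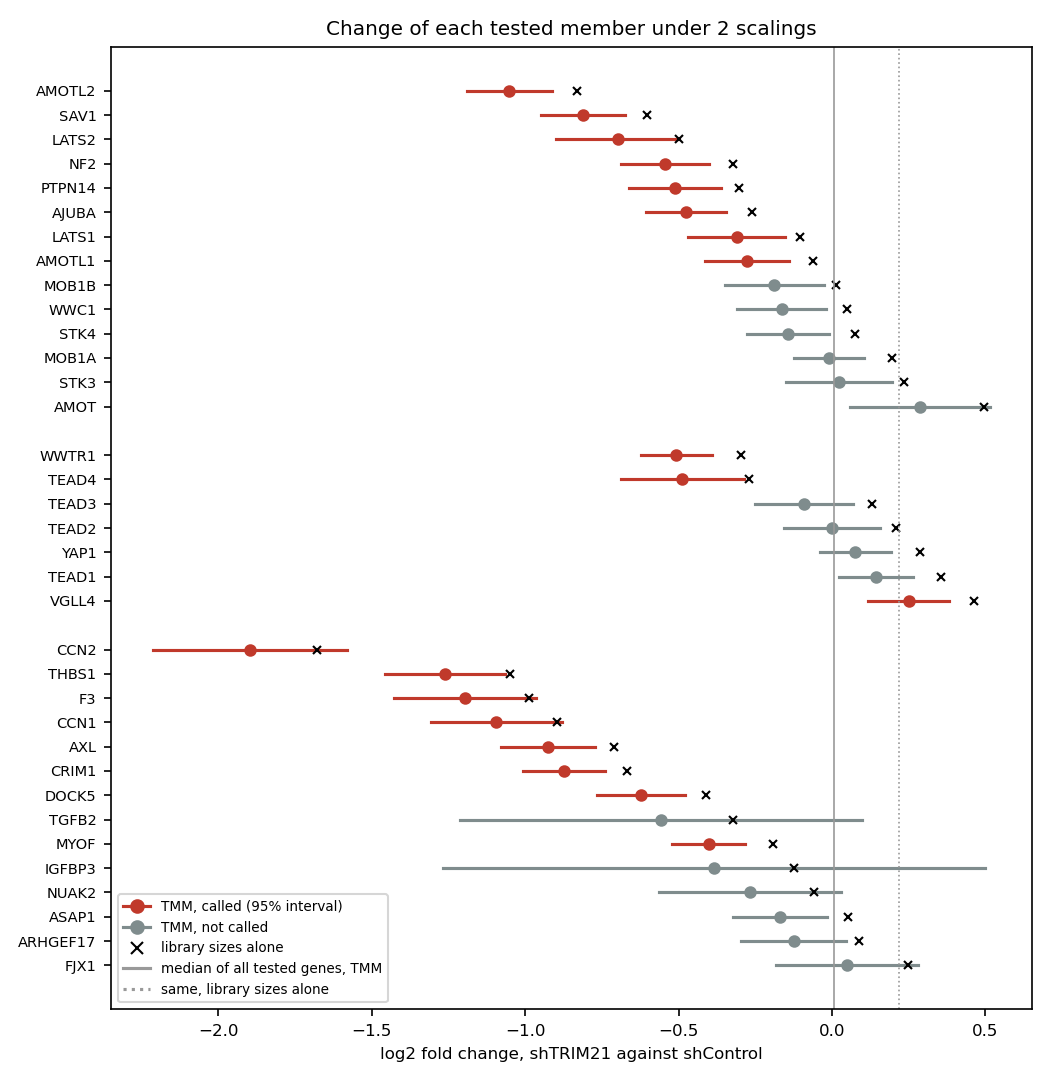
Log2 fold change of the 35 tested members with 95% intervals (circles and lines, TMM scaling, red where called) and without scaling factors (crosses); the solid and dotted lines are the medians of all tested genes under the 2 scalings, 0.0054 and 0.22. The crosses lie to the right of the circles for every member by about the same distance as the 2 medians differ.

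The TAZ gene WWTR1 was called lower, and YAP1 was not called. YAP1 was at 119, 111 and 123 CPM in shTRIM21 and at 113, 114 and 109.5 CPM in shControl, overlapping, with an interval from -0.040 to 0.19 on the log2 scale. WWTR1 was at 57.9, 55.5 and 56.4 against 79.4, 80.7 and 81.3 CPM, with a spread of about 1 CPM in each group (log2 fold change -0.51, SE 0.054). The count of WWTR1 per YAP1 count was 0.485, 0.498 and 0.457 in shTRIM21 and 0.704, 0.710 and 0.742 in shControl, with no overlap. Per kilobase of merged exons, WWTR1 stood at 14.99 ± 0.178 and YAP1 at 19.9 ± 0.386 CPM per kb in shControl, and at 10.5 ± 0.228 and 21.0 ± 1.07 CPM per kb in shTRIM21 (SD, n = 3). WWTR1 overlaps WWTR1-AS1, which has its own row.

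Of the TEAD genes, which encode the DNA-binding partners, TEAD4 alone was called. TEAD4 was at 16.3, 17.3 and 19.6 CPM in shTRIM21 and at 22.1, 25.3 and 27.1 CPM in shControl (-0.49, SE 0.094). TEAD1 was at 128, 131 and 141 against 127, 120.2 and 116 CPM; the lowest shTRIM21 library lay just above the highest control, and the interval ran from 0.024 to 0.27 without a call. TEAD2 was at 22.6 ± 0.830 against 22.6 ± 0.528 CPM and TEAD3 at 31.6 ± 0.380 against 33.7 ± 3.25 CPM, both overlapping. The counts of TEAD4 per TEAD1 count were 0.127, 0.132 and 0.139 in shTRIM21 and 0.175, 0.211 and 0.234 in shControl. This was not particular to TEAD4, since the ratios of TEAD2 and TEAD3 to TEAD1 were also lower in every shTRIM21 library. They were at 0.169 ± 0.00466 against 0.187 ± 0.00465 for TEAD2 and at 0.237 ± 0.00947 against 0.279 ± 0.0225 for TEAD3. Per kilobase in shControl the order of levels was TEAD4 at 13.8 ± 1.40, TEAD1 at 13.0 ± 0.579, TEAD3 at 11.1 ± 1.07 and TEAD2 at 8.42 ± 0.197 CPM per kb, where TEAD4 and TEAD1 did not differ beyond their spread. In shTRIM21 it was TEAD1 at 14.4 ± 0.752, TEAD3 at 10.4 ± 0.1247, TEAD4 at 9.81 ± 0.945 and TEAD2 at 8.42 ± 0.309 CPM per kb, where TEAD3 and TEAD4 did not differ beyond theirs.

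VGLL4, a TEAD-binding protein that competes with YAP and represses its targets, was the only member called higher. It was at 39.3, 37.8 and 37.8 CPM in shTRIM21 and at 31.2, 32.5 and 32.9 CPM in shControl (0.25, SE 0.062). The rise was small and the groups did not overlap; VGLL4 overlaps ATG7, which has its own row. Over the 7 genes of this role 2 were called lower and 1 higher, beside 11.0% and 9.77% of all tested genes, with a median log2 fold change of -0.00061; 1 of 7 is near that share.

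**Figure D4:**
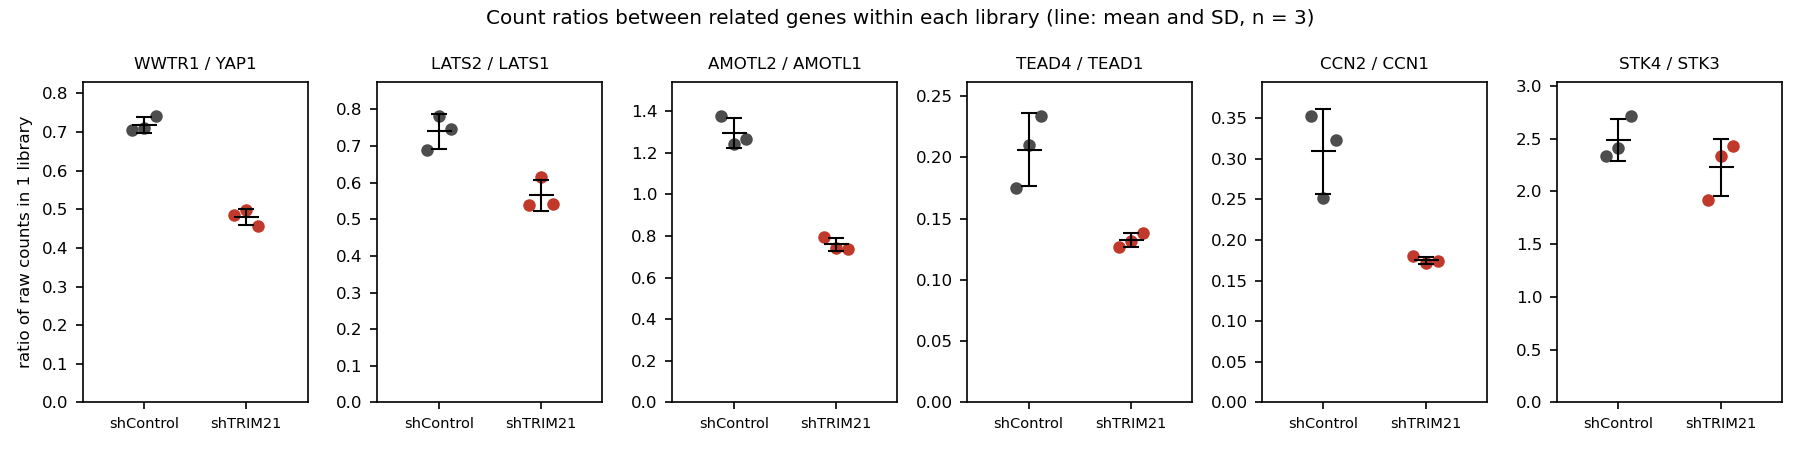
Ratio of the raw counts of related genes within each library, on linear axes that start at 0; points are libraries, lines are mean and SD (n = 3). The ratios of WWTR1 to YAP1, LATS2 to LATS1, AMOTL2 to AMOTL1, TEAD4 to TEAD1 and CCN2 to CCN1 are lower in every shTRIM21 library than in any control, and STK4 to STK3 overlaps (2.23 ± 0.272 against 2.49 ± 0.201). Of the ratios not drawn, MOB1B to MOB1A, TEAD2 to TEAD1 and TEAD3 to TEAD1 are also lower in every shTRIM21 library. The share of other gene pairs with such an order was not counted.

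Scaling moved these calls. Without scaling factors the median of all tested genes was 0.22 on the log2 scale, and 6 targets and 3 upstream members stayed lower while 0 of the co-activator and TEAD genes did. Against 1667 and 1479 with TMM factors, 138 of all 15131 tested genes were called lower and 1831 higher in that setting. The calls of WWTR1 (-0.30), TEAD4 (-0.27), NF2 (-0.32), PTPN14 (-0.30), AJUBA (-0.26), LATS1 (-0.10), AMOTL1 (-0.061), MYOF (-0.19) and DOCK5 (-0.41) were lost there, and AMOT was called higher (0.50). The median of the targets was then -0.37, which is -0.58 relative to all genes, against -0.59 with TMM. Scaled to plain library totals, 13 members had every shTRIM21 library below every control, against 22 with TMM factors; of the called members LATS1, AMOTL1, PTPN14, TEAD4 and MYOF overlapped there, as did the uncalled STK4, MOB1B, NUAK2 and ARHGEF17. Scaled to totals without ribosomal RNA rows, 19 members did so, all 18 called lower among them, STK4, MOB1B and ARHGEF17 overlapped, and YAP1 was higher in every shTRIM21 library. The share of all tested genes in that order was taken with TMM factors only (19.0%). Whether the counts of 13 and 19 members differ from such a share on their own scales was not tested. Leaving out control replicates 1 and 3, the libraries with the most ribosomal RNA, left control replicate 2 as the only control. AMOTL1 was then at -0.24 and VGLL4 at 0.23, against -0.28 and 0.25 with all libraries, and calls are not given for this setting. Among the 18 members called lower, shTRIM21 replicate 1 was the lowest of its group for 14 and shTRIM21 replicate 3 the highest for 11. The same order was not counted over all tested genes, so it is not shown to be particular to the members.

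Other genes of the pathway, from lists written down alongside the members with results known, are given by their counts. Of 31 tested further upstream regulators 3 were called lower and 4 higher, near the 11.0% and 9.77% of all tested genes, with a median log2 fold change of -0.060. Scaffold genes whose proteins can bind MST kinases were the higher genes with the smallest p-values: RASSF3 was at 86.8 ± 2.76 against 66.2 ± 1.39 CPM (0.39, SE 0.054) and RASSF2 at 13.4 ± 0.338 against 8.25 ± 1.28 CPM (0.70, SE 0.11). MAP4K5, a kinase gene that can act beside the MST kinases, changed by -0.35 (SE 0.079) and FRMD6, a relative of NF2, by -0.30 (SE 0.093). The FRMD6 call was lost without any 1 of shTRIM21 replicates 1, 2 and 3 or control replicates 1 and 3, when it ran from -0.35 to -0.26. It was also lost with upper-quartile factors (-0.26), and with control replicate 2 as the only control FRMD6 was at -0.18.

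Of 16 genes of the STRIPAK complex, a phosphatase assembly that counters MST kinases, 3 were called lower and 0 higher in edgeR, beside the same 11.0% and 9.77%, with a median of -0.085; 0 were higher also at an unadjusted p under 0.05 and in DESeq2. STK24 changed by -0.26 (SE 0.056) and STRN4 by -0.26 (SE 0.063). The STRN4 call was lost without shTRIM21 replicate 2 (-0.25). With control replicate 2 as the only control, STK24 was at -0.19 and STRN4 at -0.14. Of 11 tested polarity and junction genes DLG1 was lower, at -0.20 (SE 0.063), and CDH1, the E-cadherin gene, higher, at 0.57 (SE 0.068). That is 1 lower and 1 higher, near the 11.0% and 9.77% of all tested genes, with a median of -0.078. The DLG1 call ended without any 1 of shTRIM21 replicates 1, 2 and 3 or control replicate 2 (-0.21 to -0.15), and DLG1 was at 0.0068 without scaling factors. It also ended with upper-quartile factors (-0.16). Of 6 tested TEAD cofactor genes 1, RUNX1, was called lower, at -0.26 (SE 0.067), and 0 higher, beside the same 11.0% and 9.77%, with a median of -0.056. RUNX1 was not called when shTRIM21 replicate 1 was left out (-0.21). With control replicate 2 as the only control it was at -0.28. Without scaling factors MAP4K5 (-0.14), FRMD6 (-0.084), STK24 (-0.044), STRN4 (-0.033) and RUNX1 (-0.050) were not called either.

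Of 8 tested further YAP and TAZ targets 5 were called lower and 0 higher in edgeR, beside 11.0% and 9.77% of all tested genes, with a median of -0.32; at an unadjusted p under 0.05 edgeR had 1 higher, BIRC5, and DESeq2 called 1 higher. NT5E, the gene for the ecto-nucleotidase CD73, was at 33.4, 30.2 and 31.1 against 79.7, 89.1 and 88.1 CPM (-1.44, SE 0.066). TNFRSF12A, a receptor gene of the TNF family, was at 106, 103 and 97.4 against 171, 179 and 162 CPM (-0.75, SE 0.056). For both genes the groups were far apart. The other 8 genes of that list had too few counts to be tested.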

How the data were processed

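Each library has 1 table of whole-number counts by gene symbol, deposited by the authors without a header and not normalized. Per the submitters' processing notes TopHat2, edgeR 3.38.1, limma 3.52.2 and hg38 were used, in roles that are not stated; for the counting program, annotation and strand setting, the answer is not given in the sources used here. Without strand, reads of a gene and an overlapping gene cannot be told apart: 27 of the 37 members overlap another RefSeq gene, 12 of them one with its own row.

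Groups came from the sample titles. Counts were analysed across all genes in R 4.3.3 with edgeR 4.0.16: filterByExpr (minimum count 10, minimum total 15) kept 15131 genes, TMM factors scaled the libraries, and the quasi-likelihood F test compared groups with no covariate. Genes with a Benjamini-Hochberg adjusted p under 0.05 were called. SEs are the log2 fold change over the square root of F, and intervals cover 95%. Levels per kilobase use merged exons of GENCODE 29 basic transcripts, which may differ from the authors' annotation. Positions and promoters are from RefSeq GRCh38.p14; 29 members had a promoter entry. CCN1, CRIM1, ARHGEF17, ASAP1, DOCK5, STK3, TEAD1 and TEAD4 had none.

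The members and lists were chosen with earlier results of these data known. Every member is described; of the other lists, up to 2 called genes per direction with the smallest p-values are named. PALS1 is not analysed here. Alternatives were RLE, upper-quartile and no scaling factors, no filter, DESeq2 1.42.0, robust empirical Bayes, ribosomal RNA rows left out, a replicate block and leaving out libraries.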

Additional observations from a re-analysis of the deposited data

How the results depend on the processing

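Of the 35 tested members, RLE factors, no filter on low counts, DESeq2, robust empirical Bayes and leaving out ribosomal RNA rows kept all 35 as called or not called. The direction of every called member was kept as well, and that of uncalled members was not compared. The replicate block (the replicate number as a term) also kept all 35, with 8 targets called lower as in the fit without it; among other genes it ended the DLG1 call (-0.20) and left 2 further upstream regulators called higher, against 4. Numbers did not pair the libraries: deviations of same-numbered libraries correlated at -0.012, -0.012 and -0.074. With library sizes alone, upstream members called lower were 3 and called higher 1, co-activator and TEAD members called lower were 0, genes called lower over all tested were 138 (1667 with TMM), the target median was -0.37, and TRIM21 was at -0.34 and not called. Upper-quartile factors called 1 upstream member (AMOT) and 2 co-activator and TEAD members (VGLL4 and TEAD1) higher. Of all calls 1161 were lower and 1899 higher, against 1667 and 1479. These factors left 1 further upstream regulator called lower, against 3, with the FRMD6 call lost, and ended the DLG1 call. Without shControl replicates 1 and 3, VGLL4 was lost, leaving 0 co-activator and TEAD members higher, and 1104 genes were called lower and 854 higher. Leaving out 1 library gave 1003 to 1398 genes lower and 841 to 1211 higher, lowest without shTRIM21 replicate 2, and a target median from -0.87 to -0.56. The value of -0.87 came without shTRIM21 replicate 3, where 15 targets were tested, ANKRD1 included, and where ASAP1 and WWC1 were also called lower. DLG1 was at 0.0068 with library sizes alone. Depth limits IGFBP3, TGFB2 and ANKRD1.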
